A study of Homo sapiens with 6 samples.

Results

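The human metallothioneins MT1E, MT1F, MT1G, MT1M, MT1X, MT2A and MT3, their metal-responsive transcription factor MTF1 and the plasma membrane zinc exporter SLC30A1 were followed in glioblastoma cells treated with the ferroptosis inducer RSL3. These 9 genes were chosen by symbol, for their place in zinc handling, among the 65988 gene identifiers that were counted in each library. RNA was sequenced from U87MG, a human glioblastoma line with the wild-type genotype per the labels, with 3 libraries from vehicle-treated (control) and 3 from RSL3-treated cells at 2 µM. RSL3 inhibits the lipid peroxidase GPX4 and so sets off ferroptosis, an iron-dependent death by lipid peroxidation, and the series looked for genes that make cells more or less prone to it. Both groups share the line, the medium and the library kit, the labels name neither the vehicle nor the duration, and 1 cell line stands for the tumor. The labels do not say whether the replicates were separate cultures, so the p-values measure the spread between these libraries, which may be technical.

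Metallothioneins are small cysteine-rich proteins that bind zinc and copper in the cytosol and react with oxidants, which releases their zinc. Free zinc is sensed by MTF1, which then binds metal response elements in the promoters of the metallothioneins and of SLC30A1, so that a rise in free zinc is followed by more zinc buffer and more zinc export. Antioxidant response elements, bound by NRF2 and related factors, are also known from the promoters of this family.

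Most of the family lies in a cluster on chromosome 16. In the GENCODE 44 annotation of GRCh38, 16 metallothionein genes and pseudogenes span 119 kb from MT4 to MT1X (bases 56565073 to 56684196), and 1 of them, MT1G, is on the minus strand. To show the sequence that MTF1 is known to read, the 250 bases before the RefSeq start (GRCh38.p14) are given 5′ to 3′ on the strand of the gene for MT2A, MT1X and SLC30A1, and for MT1H, a family member outside the 9 that was added here after its values were seen. Capitals mark matches, on either strand, to the metal response core TGCGCNC or TGCACNC, and no match overlaps another.
MT2A (chr16:56608334-56608583, + strand): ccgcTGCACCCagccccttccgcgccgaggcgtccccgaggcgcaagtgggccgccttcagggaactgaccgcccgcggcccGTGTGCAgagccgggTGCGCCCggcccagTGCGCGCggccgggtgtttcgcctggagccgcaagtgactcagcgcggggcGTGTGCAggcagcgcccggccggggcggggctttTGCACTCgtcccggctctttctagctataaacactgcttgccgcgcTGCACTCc
MT1X (chr16:56682220-56682469, + strand): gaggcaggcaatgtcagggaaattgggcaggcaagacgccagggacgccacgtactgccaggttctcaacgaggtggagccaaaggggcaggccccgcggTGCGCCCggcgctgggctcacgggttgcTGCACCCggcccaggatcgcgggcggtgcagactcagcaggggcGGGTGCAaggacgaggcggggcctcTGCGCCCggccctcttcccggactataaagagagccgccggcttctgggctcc
SLC30A1 (chr1:211579162-211579411, - strand): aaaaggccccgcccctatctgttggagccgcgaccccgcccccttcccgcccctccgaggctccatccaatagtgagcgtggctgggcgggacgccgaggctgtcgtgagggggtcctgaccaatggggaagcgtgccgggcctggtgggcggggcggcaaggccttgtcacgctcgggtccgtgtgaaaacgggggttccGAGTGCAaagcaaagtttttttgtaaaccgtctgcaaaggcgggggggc
MT1H (chr16:56669564-56669813, + strand): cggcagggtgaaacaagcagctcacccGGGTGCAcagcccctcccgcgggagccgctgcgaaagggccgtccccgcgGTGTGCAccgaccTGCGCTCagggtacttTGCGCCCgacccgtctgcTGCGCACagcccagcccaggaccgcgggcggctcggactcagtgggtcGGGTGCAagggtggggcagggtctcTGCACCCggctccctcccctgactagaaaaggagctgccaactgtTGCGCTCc
Of the 9 genes, 4 had a RefSeq promoter entry (MT2A, MT1X, MTF1 and SLC30A1). In the whole window, from 250 bases before to 50 after the start, MT2A held 8 cores, MT1X 4, SLC30A1 2 and MTF1 0, and MT1H held 8. MT1B and MT4, the other family genes with an entry, held 3 each, and neither had more than 1 count in any library. A core of MT2A and a core of SLC30A1 lie after the start and so are not in the stretches shown. At least 8 cores were found in 7 of 35116 RefSeq promoters (0.0199%), at least 4 in 0.601%, at least 3 in 2.30% and at least 2 in 8.60%. TGCGCNC was in 20.0% of promoters, TGCACNC in 12.1%, and either in 29.6%. The antioxidant response core TGACNNNGC, which 13.3% of promoters hold, was found 1 time each in MT2A, MT1X and SLC30A1 and was not in the windows of MTF1 or MT1H. A match describes the letters of the window and does not show that a factor binds there.

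The libraries held 27813462 to 43306335 counts. Of the identifiers, 16105 passed the filter on low counts and were tested, and the counts below are normalized counts, scaled by edgeR's TMM factors (0.995 to 1.01) to a common library size. The label of the line was checked against marker genes. VIM, an intermediate filament gene of mesenchymal glioma lines, had 68318 ± 967 normalized counts in control and 55915 ± 1004 in RSL3 libraries (SD, n = 3 each). CD44, a surface receptor of the same lines, had 24702 ± 570 normalized counts in control and 18886 ± 861 in RSL3 libraries. Both fell (edgeR adjusted p = 2.2e-08 and 1.2e-08), as did FN1, while TNC rose and NES did not pass the test, and the part of these genes in the results was not tested. VIM and CD44 were picked for values after these were seen. NES, of the same list, had only 153 ± 4.91 normalized counts in control libraries (SD, n = 3). That is below SLC1A3 of the astrocyte list (660 ± 32.5) and SYT1 of the neuron list (888 ± 23.3). The summed lists of other cell types reached at most 33.9 CPM (counts scaled to a common total of 1000000 per library), with AQP4, MOG and AIF1 at 0 counts. The range, in CPM, was 27.3 to 29.2 in control and 23.0 to 25.3 in RSL3 libraries for the 6 astrocyte genes, and 30.3 to 32.8 and 33.1 to 33.9 for the 4 neuron genes. It was 2.35 to 3.11 and 4.13 to 4.69 for the 3 oligodendrocyte genes, 1.96 to 2.85 and 0.853 to 1.49 for the 3 endothelial genes, and 0.190 to 0.469 and 0.183 to 0.506 for the 4 leukocyte genes. All of these lists but the leukocyte list moved with the groups, and their part in the results was not tested. MOG and AIF1 lie on chromosome 6 (from bases 29657002 and 31615217). The zinc transporter gene SLC39A7 (from base 33200305) was also at 0 there, and RXRB, whose exons overlap it, had 0 to 2 counts. Whether reads of this region were lost was not tested, so the 0 counts of MOG and AIF1 do not show absence. In bulk RNA, fewer cells of a kind and less RNA per cell cannot be told apart.

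In the RSL3-treated cells, 3 of the metallothioneins fell (MT2A, MT1E and MT1X), MTF1 rose, MT1F, MT1G, MT1M and SLC30A1 did not pass the test, and MT3 was too low to test. The changes that passed were small, from 11.5% to 22.5% of the control mean. In edgeR's quasi-likelihood test with Benjamini-Hochberg adjustment over all genes, 4 of the 8 members tested had an adjusted p under 0.05, beside 25.6% of all genes tested, 1 member was higher (12.9% of all genes) and 3 were lower (12.7% of all genes). The control and RSL3 libraries did not overlap for 5 of the 8, beside 38.6% of all genes. The median log2 fold change was 0.02 over the 8 and -0.0044 over all 16105 genes tested.

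MT2A (ENSG00000125148, chromosome 16, 56608584 to 56609497) encodes the most widely expressed metallothionein. It had 26187, 24176 and 25744 normalized counts in control replicates 1 to 3, and 22453, 21549 and 23349 in the RSL3 replicates. Every RSL3 library was below every control library. The mean fell by 11.5%, from 25369 ± 1057 to 22450 ± 900 (SD, n = 3 each), a log2 fold change of -0.18 (SE 0.03, 95% interval -0.25 to -0.11, edgeR adjusted p = 0.000434).

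MT1E (ENSG00000169715, chromosome 16, 56625475 to 56627112), a type 1 metallothionein, showed the largest decrease in percent among the 9 genes. Its normalized counts were 5503, 4918 and 5470 in control and 4405, 4160 and 4481 in RSL3 libraries, with no overlap between the groups. The mean went from 5297 ± 329 to 4349 ± 168 (SD, n = 3 each), so that it fell by 17.9%. The log2 fold change was -0.29 (SE 0.04, 95% interval -0.37 to -0.20, edgeR adjusted p = 1.97e-05).

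MT1X (ENSG00000187193, chromosome 16, 56682470 to 56684196), the last gene of the cluster, had 826, 819 and 835 normalized counts in control and 678, 662 and 727 in RSL3 libraries. The controls were close together and all lay above the RSL3 libraries. The mean fell by 16.7%, from 827 ± 7.72 to 689 ± 33.9 (SD, n = 3 each), a log2 fold change of -0.26 (SE 0.06, 95% interval -0.39 to -0.13, edgeR adjusted p = 0.00356). With DESeq2 and 2 surrogate variables the log2 fold change was -0.26 and the call was lost (adjusted p = 0.0648). Exons of a long noncoding RNA on the same strand cover 18.6% of the exon bases of MT1X, and that RNA had 0 counts in every library.

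MT1F (ENSG00000198417, chromosome 16, 56657731 to 56660698) lies between these genes in the cluster and had 3207, 2919 and 3107 normalized counts in control and 3258, 3029 and 3171 in RSL3 libraries. The groups overlapped, and the log2 fold change was 0.03 (95% interval -0.05 to 0.12, edgeR adjusted p = 0.631). MT1M (ENSG00000205364, chromosome 16, 56632659 to 56633981) had 458, 460 and 500 normalized counts in control and 448, 506 and 463 in RSL3 libraries. The group means were both 473, the libraries overlapped, and the 95% interval of the log2 fold change ran from -0.17 to 0.17 (edgeR adjusted p = 0.998). MT1G (ENSG00000125144, chromosome 16, 56666730 to 56668065) had 270, 290 and 278 normalized counts in control and 333, 285 and 314 in RSL3 libraries. RSL3 replicate 2 lay within the control range, and the log2 fold change of 0.15 did not pass the test (95% interval -0.05 to 0.36, edgeR adjusted p = 0.295). The intervals of MT1F and MT1G lay above that of MT2A (-0.25 to -0.11), while that of MT1M overlapped it. The ratios of these 3 genes to MT2A within each library are given further on.

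MT3 (ENSG00000087250, chromosome 16, 56589074 to 56591088), the metallothionein known from neurons and astrocytes, had 0 counts in 5 libraries and 1 count in RSL3 replicate 2. It did not pass the filter. A count of 0 allows a level of up to 0.0693 to 0.108 CPM in these libraries (3 counts, counting error only). The 0 counts therefore do not exclude a level below that.

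MTF1 (ENSG00000188786, chromosome 1, 37809574 to 37859592, minus strand), the zinc-sensing transcription factor, was the member that rose. It had 1844, 1806 and 1876 normalized counts in control and 2231, 2315 and 2224 in RSL3 libraries. All RSL3 libraries were above all control libraries. The mean went from 1842 ± 34.9 to 2257 ± 50.4 (SD, n = 3 each), 22.5% higher, with a log2 fold change of 0.29 (SE 0.04, 95% interval 0.21 to 0.37, edgeR adjusted p = 1.02e-05).

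SLC30A1 (ENSG00000170385, chromosome 1, 211571568 to 211579161, minus strand) moves zinc out of the cell and is a known target of MTF1. It had 7030, 6831 and 7021 normalized counts in control and 7053, 7385 and 7092 in RSL3 libraries. Each RSL3 library was above the controls, RSL3 replicate 1 by a narrow margin. The log2 fold change of 0.04 did not pass the test (SE 0.03, 95% interval -0.02 to 0.11, edgeR adjusted p = 0.350), and its interval lay below that of MTF1.

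**Figure D1:**
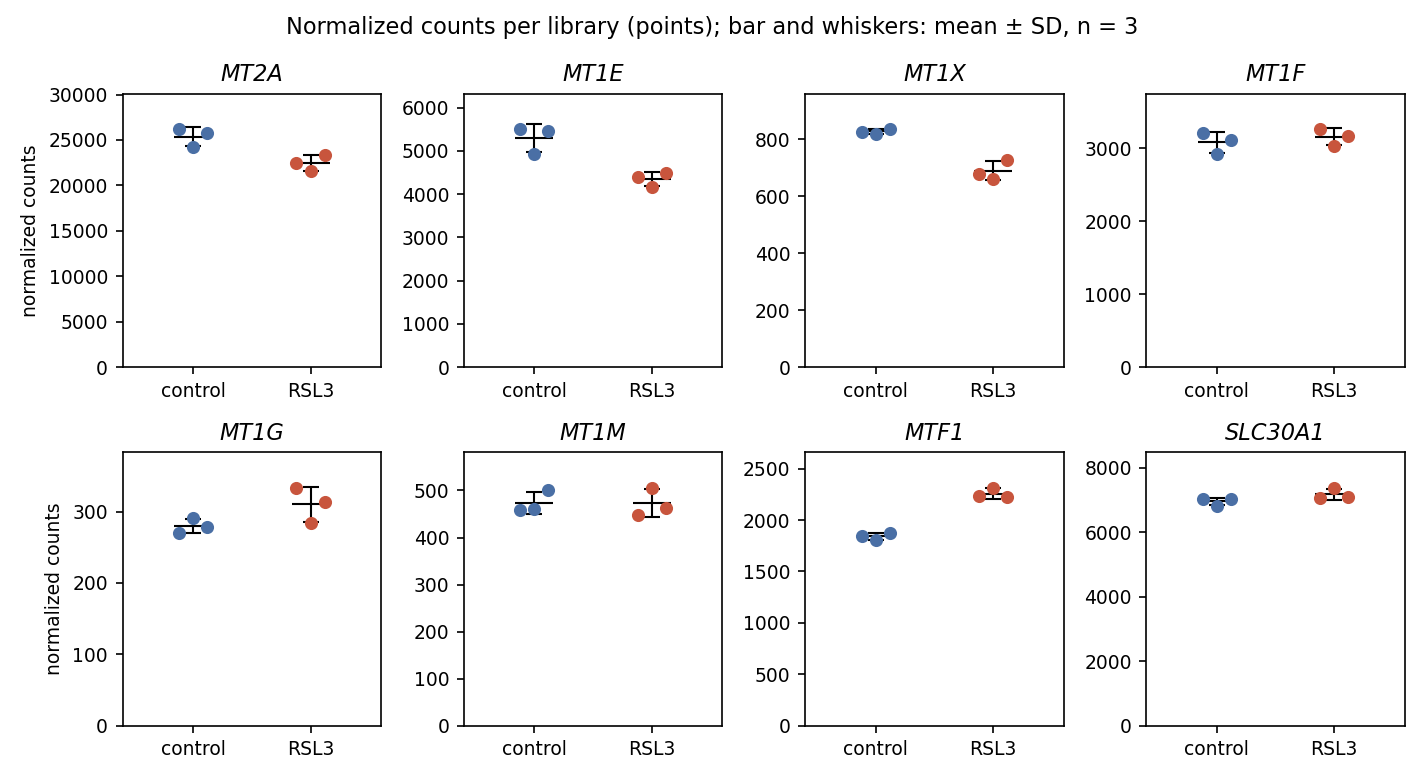
Normalized counts (y axis, from 0, with its own scale in each panel) of the 8 members tested in the 3 control and 3 RSL3 libraries, as points, with mean ± SD (n = 3). MT2A, MT1E and MT1X are lower in every RSL3 library, MTF1 is higher in every RSL3 library, and the groups overlap for MT1F, MT1G and MT1M.

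**Figure D2:**
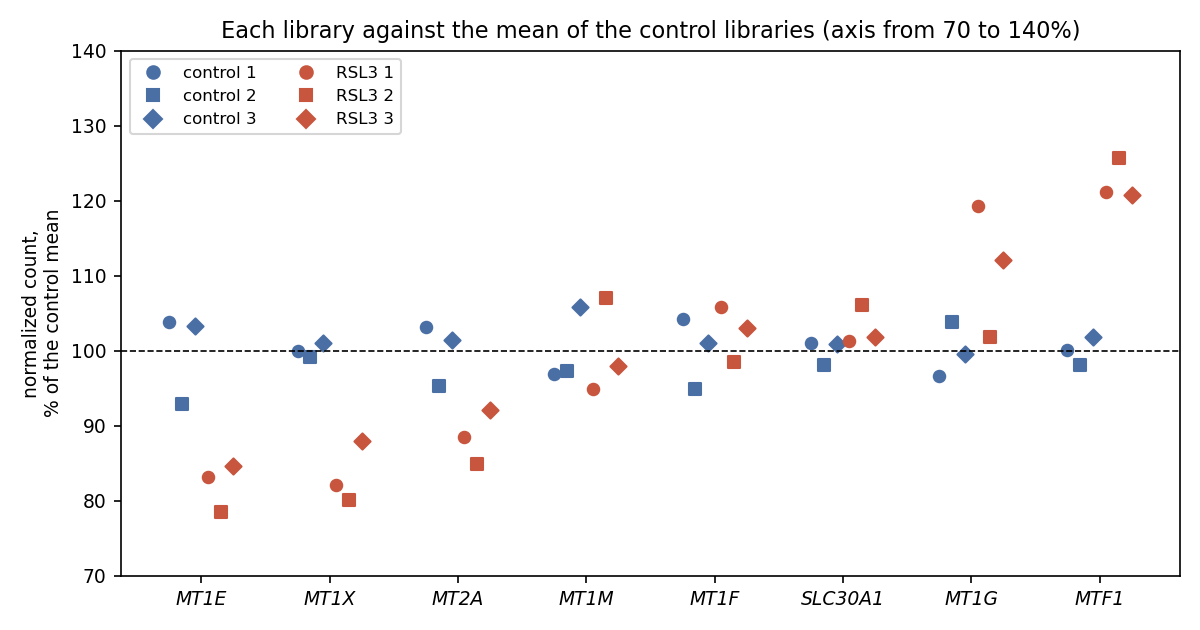
The same counts as percent of the mean of the control libraries (y axis, which does not start at 0), with 1 symbol for each library. RSL3 replicate 2 holds the lowest value of MT1E, MT1X and MT2A and the highest of MTF1, SLC30A1 and MT1M.

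Per length, the members differed far more from each other than between the groups. On the scale of normalized counts per kilobase of exon, scaled as CPM, with all annotated exons as the length, the control mean was 814 ± 33.9 for MT2A (SD, n = 3), the 20th highest of the genes tested that have an annotation. MT1E followed at 148 ± 9.16, MT1F at 48.7 ± 2.32, SLC30A1 at 34.6 ± 0.558, MT1M at 27.1 ± 1.36, MT1X at 14.0 ± 0.131, MT1G at 10.9 ± 0.393 and MTF1 at 6.76 ± 0.128, and the control ranges of neighbors in this order did not overlap. In the RSL3 libraries MT1G (12.1 ± 0.959) and MT1X (11.7 ± 0.576) overlapped. The order depends on the length used. With the canonical transcript of each gene, a length tried after the values were seen, MT2A stayed first at 1855 and MT1F (212) and MT1E (208) came next with overlapping ranges. MT1X then moved to 60.0, above MT1M (34.8) and SLC30A1 (34.6), whose ranges overlapped.

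The 6 metallothioneins of types 1 and 2 were also summed, which does not depend on which of these 6 similar genes a read was given to. Their sum was 36452, 33583 and 35935 normalized counts in control and 31576, 30190 and 32505 in RSL3 libraries, without overlap. The mean was 35323 ± 1529 in control and 31424 ± 1165 in RSL3 libraries (SD, n = 3), a log2 ratio of -0.17. As a share of all counts it was 0.104% in control and 0.0918% in RSL3 libraries. MT2A made up 71.8% of the sum in control and 71.4% in RSL3 libraries, MT1E 15.0% and 13.8%, MT1F 8.71% and 10.0%, MT1X 2.34% and 2.19%, MT1M 1.34% and 1.51%, and MT1G 0.794% and 0.988%. No test was run on the sum.

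Ratios to MT2A within each library, which do not depend on the scaling of the libraries, were computed after the values were seen. MT1E and MT1X were lower relative to MT2A in RSL3 than in control libraries, by log2 differences of -0.11 and -0.09. MT1F (0.21), MT1G (0.32) and MT1M (0.17) were higher relative to MT2A, as were SLC30A1 (0.22) and MTF1 (0.47). MT2A itself fell (log2 fold change -0.18), so a gene that did not change is higher relative to it by about that size. The ratios of MT1F, MT1G, MT1M and SLC30A1, whose own changes did not pass the test, are therefore not separate evidence about these genes. The groups did not overlap for any of the 7 ratios, beside 46.9% of all genes set against MT2A in the same way. Each had p = 0.1 in a two-sided exact permutation test and 0.1 after adjustment over the 7, the smallest p that 3 against 3 libraries allow, so this test could not pass the threshold.

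Sequence that also occurs elsewhere in the genome limits how exactly reads can be assigned, since the counting program leaves out reads with several equally good places. Of the 75-base windows of the canonical transcript, 11.9% occur elsewhere in the genome for MT1E, 3.94% for MT1X, 2.38% for MT1G and 1.23% for MT1M. For MT2A, MT1F, MT3 and SLC30A1 the share was 0, and for MTF1 0.750%. The shared windows of MT1E lay within the bounds, introns included, of MT1M (48 windows), the pseudogene MT1JP (31) and MT1G (11). No window of the canonical transcripts of these genes was found in MT1E in turn, so sharing between their canonical exons was not shown. The shared windows of MT1M lay within RNF19B (4 windows), which is no metallothionein. Those of MT1G (8) and MT1X (13) lay in the pseudogene MT1XP1. By this count the values of MT1E are the least certain of the 9, and windows that differ by few bases were not counted. The windows came from spliced transcripts and were sought in the genome. A window across an exon junction could therefore match only a copy without that intron. The shares, also those of 0, are lower bounds and do not show that all reads could be assigned.

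**Figure D3:**
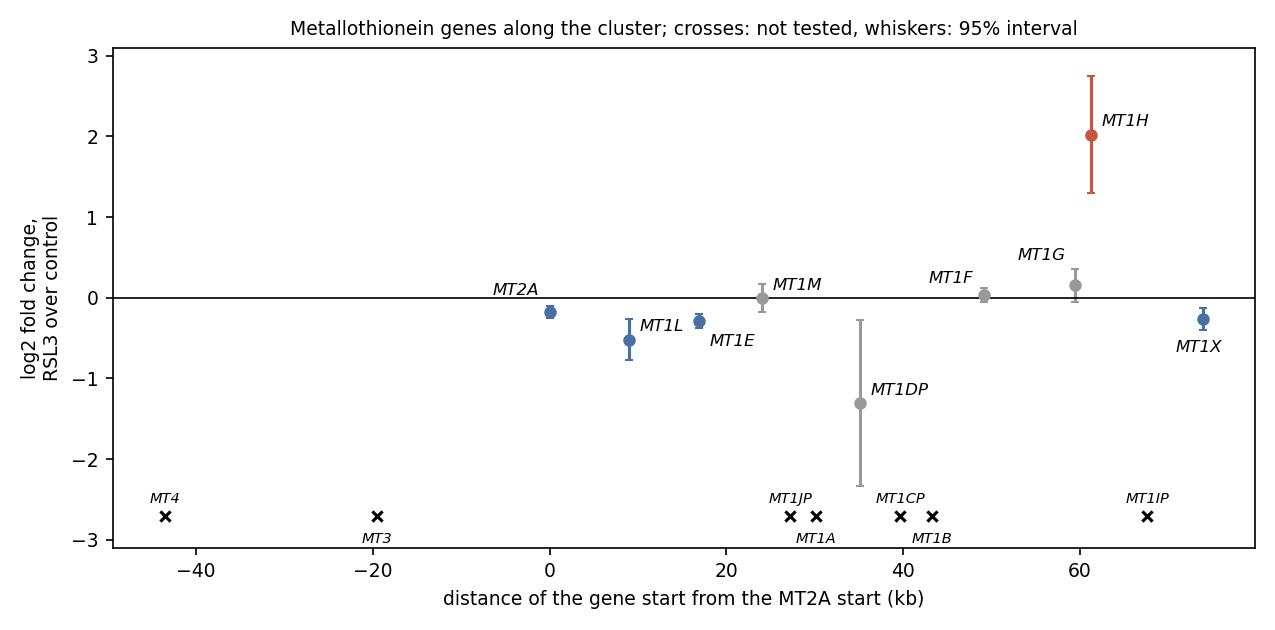
Log2 fold change of RSL3 over control (edgeR, whiskers 95% interval, y axis) along the metallothionein cluster, against the distance of each gene's start from that of MT2A in kb (x axis). Blue marks genes called lower, red higher and grey not called, and crosses mark genes not tested; MT1H lies between MT1G and MT1X, neither of which was called higher.

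Of 14 other metallothionein genes and pseudogenes, 4 were tested, 1 rose and 1 fell, beside 12.9% and 12.7% of all genes. MT1H (chromosome 16, 56669814 to 56671129), a type 1 gene, had raw counts of 12, 8 and 12 in control and 30, 46 and 42 in RSL3 libraries. All RSL3 libraries were well above the controls, though the counts are few. MT1H passed the filter on low counts through its RSL3 libraries, since not every control library reached the cutoff. The p-value and rank that follow are therefore not independent of its rise. Its normalized mean went from 10.1 ± 0.866 to 41.4 ± 6.66 (SD, n = 3), 4.09-fold higher, with a log2 fold change of 2.02 (SE 0.35, 95% interval 1.30 to 2.75, edgeR adjusted p = 0.000147), the 9th highest of the 16105 genes tested. Of its windows, 10.8% are shared with MT1HL1, a copy on chromosome 1 that had 1 count in all libraries together. MT1L, a pseudogene whose 186 exon bases also lie in a long noncoding RNA of GENCODE 44, fell from 235 ± 26.6 to 165 ± 10.2 normalized counts (SD, n = 3), with a log2 fold change of -0.52 (edgeR adjusted p = 0.00308), a call that DESeq2 with 2 surrogate variables did not make (adjusted p = 0.0553). MT1DP and MT1XP1 were tested and not called. MT1DP, whose exon bases are likewise all covered by another annotated RNA, had a log2 fold change of -1.31 (edgeR adjusted p = 0.0568). It was -1.001 without control replicate 1 (edgeR adjusted p = 0.269), -0.86 without RSL3 replicate 2 (0.266) and -1.48 without control replicate 2 (0.0485), and MT1DP passed in 5 of 13 alternatives. MT1A, MT1B, MT1HL1, MT1JP, MT1IP and MT1P1 were too low to test, and MT4, MT1P3, MT1CP and MT2P1 had 0 counts.

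Zinc also moves through the other transporters of the SLC30 family, which lower cytosolic zinc, and of the SLC39 family, which raise it. Of these 23 genes, 17 were tested, 3 rose, 3 fell and 11 did not pass. Of all genes, 12.9% were called higher and 12.7% lower. Their median log2 fold change was -0.05. Among the 7 tested SLC30 genes other than SLC30A1, SLC30A6, a zinc transporter of the secretory pathway, passed. It went from 2400 ± 32.8 to 2661 ± 71.1 normalized counts (SD, n = 3), a log2 fold change of 0.15 (edgeR adjusted p = 0.00512), a call that DESeq2 with 2 surrogate variables did not make (adjusted p = 0.0720). SLC30A7 (log2 fold change -0.11, edgeR adjusted p = 0.05004) and SLC30A9 (-0.09, edgeR adjusted p = 0.0559) did not pass, were named after their values were seen, and passed in 4 and 3 of 17 alternatives. SLC30A7 passed without RSL3 replicate 3 (edgeR adjusted p = 0.0378) and SLC30A9 without control replicate 1 (0.0215).

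Of the 10 SLC39 genes tested, 2 rose (12.9% of all genes) and 3 fell (12.7% of all genes). SLC39A14, which takes up zinc and also iron that is not bound to transferrin, went from 24545 ± 54.4 to 27109 ± 263 normalized counts (SD, n = 3), a log2 fold change of 0.14 (edgeR adjusted p = 0.000269). SLC39A8, a close relative of SLC39A14 in sequence and metals carried, moved the other way, from 2179 ± 187 to 1849 ± 65.8 normalized counts, a log2 fold change of -0.24 (edgeR adjusted p = 0.00139). The groups did not overlap for either gene.

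The remaining SLC39 calls were less stable. SLC39A6 had a log2 fold change of -0.13 (edgeR adjusted p = 0.00864) and did not pass without control replicate 3 (-0.10, adjusted p = 0.0580). It also did not pass with DESeq2 and 2 surrogate variables (adjusted p = 0.0740), and so passed in 15 of 17 alternatives. SLC39A10 had -0.25 (edgeR adjusted p = 0.0214) and did not pass without control replicate 2 (adjusted p = 0.0674), RSL3 replicate 2 (0.0915) or RSL3 replicate 3 (0.0621). Nor did SLC39A10 pass with DESeq2 and 1 or 2 surrogate variables (0.0730 and 0.168) or the replicate block with GC offsets (0.0543). It passed in 11 of 17 alternatives. SLC39A4 had 0.22 (edgeR adjusted p = 0.0421) and did not pass without control replicate 2 (adjusted p = 0.0973), control replicate 3 (0.121), RSL3 replicate 1 (0.216) or RSL3 replicate 3 (0.0584). It also did not pass with total counts (0.0522), no filter (0.0513), GC offsets (0.0594) or DESeq2 with 0, 1 or 2 surrogate variables (0.0647, 0.107 and 0.211), and so passed in 7 of 17 alternatives. SLC39A7 and SLC30A2 were listed at 0 in every library. RXRB, whose exons overlap those of SLC39A7 on chromosome 6, had 0 to 2 counts. Whether reads of this region were lost was not tested, so the 0 of SLC39A7 does not show that it is not expressed.

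**Figure D4:**
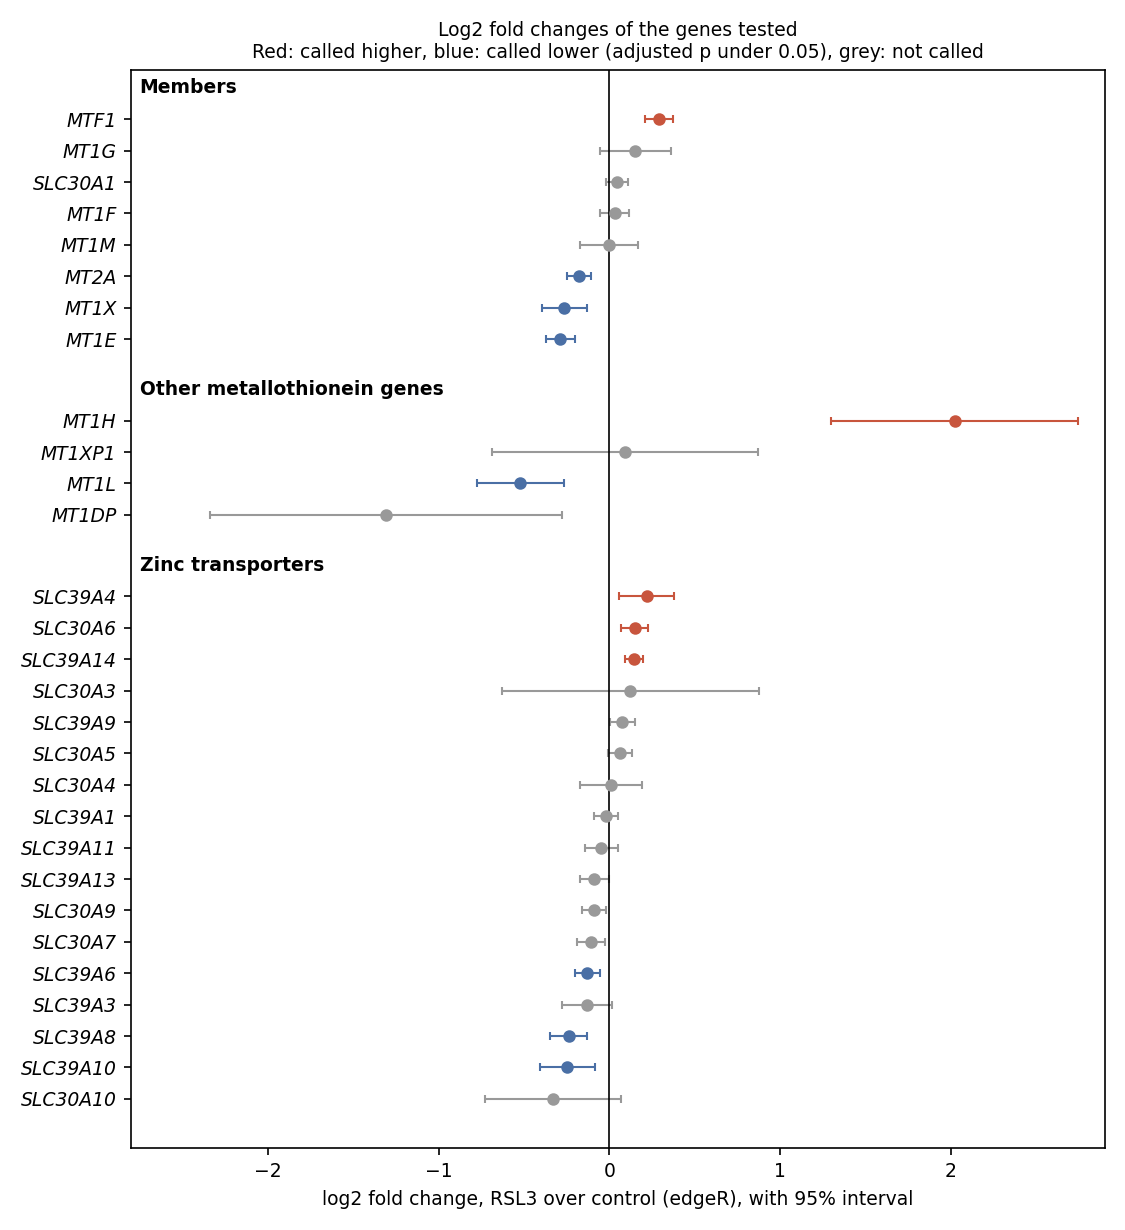
Log2 fold changes of RSL3 over control (edgeR, x axis) with 95% intervals for the members tested, the other metallothionein genes and the other zinc transporters (y axis). Red genes were called higher, blue lower and grey not called; the interval of MTF1 (0.21 to 0.37) lies above 0 and those of MT2A, MT1E and MT1X below it.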

How the data were processed

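Poly(A) RNA of U87MG cells was sequenced as paired reads in 3 control and 3 RSL3 libraries, grouped by the treatment in the labels. The values are raw counts per Ensembl gene that the authors deposited, not normalized, made with Trimmomatic, HISAT2 on GRCh38.p4 and HTSeq-count on exons without strand; the annotation release is not given in the sources used here. Without strand, reads of overlapping genes cannot be told apart. The authors tested with DESeq2 after surrogate variable analysis with settings not given in the sources used here.

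The 9 members and the gene lists were chosen with earlier results of these data known. Counts were analysed with edgeR 4.0.16 in R 4.3.3: filterByExpr (minimum count 10), TMM, quasi-likelihood F test, two-sided, Benjamini-Hochberg over all genes, threshold 0.05. The procedure was tested on simulated data with 200 changed genes. It recovered 79.8% of log2 changes of 0.5 and 69.9% of log2 changes of 1, and called 0.109% of unchanged genes. The sizes were given out along the order of the genes and not at random. The recovery rates thus come from different parts of that order and do not compare the sizes. Changes as small as those of the members were not simulated. Alternatives were other scaling, filters, DESeq2 1.42.0 with 0, 1 or 2 surrogate variables (sva 3.50.0), GC offsets, a replicate block, a threshold of 0.01 and leaving out each library. All members were named, and of the other lists at most 5 genes called in each direction; MT1DP, SLC30A7 and SLC30A9, which were not called, were named after their values were seen. Gene names came from a table that matched 56434 of 65988 identifiers, coordinates from GENCODE 44 on GRCh38, and promoters from RefSeq, GRCh38.p14. No sample column was left unused. The depth of 27813462 to 43306335 counts sets the counting error only. Per kilobase values use deposited counts divided by exon length. A marker list of glioma lines holds an item that is not reported here, and its sum was left out.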

Additional observations from a re-analysis of the deposited data

How the results depend on the processing

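Across 17 alternatives, MT1E (log2 fold change -0.33 to -0.25), MT2A (-0.21 to -0.15) and MTF1 (0.27 to 0.32) kept direction and call in all, MT1X (-0.30 to -0.23) in 16, and SLC30A1 (0.02 to 0.07) passed in none. The number of members called was 4 in each but DESeq2 with 2 surrogate variables, which gave 3. Genes called over the whole table numbered 2268 to 4731, against 4123 of 16105 tested in the main fit. The lowest number, 2268 of 14261 tested, came from DESeq2 with 2 surrogate variables. The highest, 4731 of 16105, came from the replicate block with GC offsets. DESeq2 with 2 surrogate variables called 2 zinc transporters, against 6, and 1 of the other metallothioneins, against 2; a minimum of 10 counts in every library, which removes MT1H (8 counts in control replicate 2), also left 1. Over all settings the zinc transporters called ran from 2 to 8, with 8 under GC offsets, the replicate block (which adds SLC30A7, adjusted p = 0.0263, and SLC30A9, 0.0288) and both. The other metallothioneins called ran from 1 to 3, with 3 under no filter, GC offsets, the replicate block (which adds MT1DP, adjusted p = 0.0483), both, and without control replicate 2. Copper handling genes called were 2, against 1, with total counts, GC offsets, the replicate block, and the replicate block with GC offsets. The summed log2 ratio was -0.20 to -0.14 without single libraries. Replicate numbers were not taken as pairs, and the data leave a pairing open. Same-numbered deviations correlated weakly (0.0274, 0.0274 and 0.0701), and differently numbered ones ran from -0.0454 to 0.0181. Each sample correlated best with its own number, a hint from the data and not from the design. The replicate block called 4633 genes, against 4123, and 4 members. The depth limits MT3 and MT1H, and 3 libraries a group limit small changes.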

Other observations

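Metallothioneins also bind copper, and 10 genes of copper uptake, export and delivery were read beside them. All 9 that matched an identifier were tested, and 1 rose in the RSL3 libraries, beside 12.9% of all genes called higher. SLC31A1, the high-affinity copper importer of the plasma membrane, had 6389, 6671 and 6502 normalized counts in control and 7833, 7612 and 7491 in RSL3 libraries, without overlap, a log2 fold change of 0.23 (SE 0.03, edgeR adjusted p = 1.12e-05).

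Among 11226 genes with a mean of at least 100 normalized counts, the 5 whose centered log2 counts over the 6 libraries lay closest to the summed metallothioneins were AKR1A1 (root mean square difference 0.0167), STK11IP (0.0175), UFD1 (0.0205), HMG20B (0.0205) and PTK7 (0.0206). AKR1A1, an aldehyde reductase, had 2214, 1993 and 2126 normalized counts in control and 1903, 1790 and 1978 in RSL3 libraries.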
